A study of Miniopterus schreibersii with 14 samples.

Results

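The limb buds of stage S14 embryos of the bent-wing bat Miniopterus schreibersii, forelimb against hindlimb, are described here from 6 of the 14 libraries of the series. The members are the 3 forelimb libraries, from the anterior, middle and posterior parts of the bud, and the 3 hindlimb libraries from the same parts. They were chosen by the labelled stage and limb, and each forelimb part was matched to the hindlimb part of the same position. Of the 64618 assembled components in the deposited table, 15693 (24.3%) had a mean score of at least 20 over these 6 libraries and were tested. They carried 98.7% of the score in the buds, and the means nearest that minimum were 20 among the kept and 19.8 among the others. The score is the authors' normalized count of reads per component, rounded to a whole number.

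All 14 libraries are mRNA-seq of the autopod (the future hand or foot) from unmanipulated embryos as far as the labels say. Beside the buds there are 6 libraries of S15-17 digits and interdigital tissue and 2 of fetal metacarpals and metatarsals. Each part has 1 library, so the 3 positions serve as the replicates of a limb. The p-values, from limma, set a limb difference against a spread that is mostly borrowed from other components. The fit had 11 prior degrees of freedom, shared over components, against 2 residual ones from the positions. A small p-value is therefore not a measure of recurrence over the 3 positions alone. Whether 1 embryo or several went into a library, and whether the parts share embryos, is unstated in the labels.

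Forelimb and hindlimb buds form at different levels of the flank and look alike at first. In mouse and chick the transcription factor TBX5 is expressed in the forelimb, and PITX1 and TBX4 in the hindlimb. Within either bud, Sonic hedgehog from the posterior margin and fibroblast growth factors from the ridge at the tip pattern and extend the limb. In bats the forelimb bud goes on to form a wing with long digits joined by a membrane, while the hindlimb forms a small foot. The table names components by assembly number and pairs none of them with a gene, and 0 of its identifiers matched the 22775 genes of the reference table used here. The levels of those genes were therefore not analysed here, and components are described by their values alone. Several components may come from 1 gene, so counts of components say nothing of the number of genes.

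The bud libraries held 4951055 to 6693330 reads, with the anterior forelimb library the shallowest. That library also stood apart from the others. Its Pearson r of log2 scores across components with the other 5 had a median of 0.957, while those medians were 0.962 to 0.971 for the other libraries. On the first principal component, which held 37.9% of the variance, it lay at 51.7. The middle and posterior forelimb libraries lay at 1.03 and 16.9. The anterior, middle and posterior hindlimb libraries lay at -22.7, -12.5 and -34.5, so every forelimb library was above every hindlimb library on that axis. The forelimb libraries correlated with each other at 0.957 to 0.970 and the hindlimb libraries at 0.975 to 0.985. The part that depth or the state of single libraries has in the results was not tested, but values without the anterior forelimb library are given beside the counts.

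The widest limb difference belonged to comp3599_c0, which was nearly missing from forelimb buds. It scored 0, 2 and 2 in anterior, middle and posterior forelimb, against 1659, 1848 and 2097 in hindlimb. The groups were far apart and every hindlimb part was high. The mean was 1.33 ± 1.15 in forelimb and 1868 ± 219.7 in hindlimb (SD, n = 3 parts each), and the log2 difference was -9.80 (SE 0.31, limma adjusted p = 1.6e-09). Pooled over the parts it had 2 reads in forelimb and 3216 in hindlimb, a 1514-fold lower level in forelimb (exact 95% interval 419 to 12503, counting error only).

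In the same direction, comp13294_c0 scored 0 in all 3 forelimb buds, against 54, 69 and 74 in anterior, middle and posterior hindlimb. It had 0 reads in forelimb and 112 in hindlimb, at least 35.1-fold lower in forelimb where 3 reads over the 3 forelimb libraries are taken as the floor. Its log2 difference was -6.05 (SE 0.61, limma adjusted p = 0.00029). It was the only called component without a forelimb read: 3 others among those tested had none either, but each had all its hindlimb reads in 1 library.

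The component that most marked forelimb was comp3938_c0, with scores of 498, 490 and 403 in anterior, middle and posterior forelimb, against 0, 0 and 2 in hindlimb. All forelimb parts were high and the hindlimb parts were at or near 0. The mean was 464 ± 52.7 in forelimb and 0.667 ± 1.15 in hindlimb (SD, n = 3 each), and the log2 difference 8.33 (SE 0.44, limma adjusted p = 5.4e-07). There were 742 reads in forelimb and 1 in hindlimb, a ratio of 788 (exact 95% interval 141 to 31178).

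Second in that direction was comp16347_c0, which was present in both limbs. Its scores were 67, 82 and 42 in anterior, middle and posterior forelimb and 2, 10 and 8 in hindlimb, with every forelimb part above every hindlimb part. The log2 difference was 3.22 (SE 0.48, limma adjusted p = 0.0049), from 101 forelimb and 11 hindlimb reads, a ratio of 9.75 (exact 95% interval 5.23 to 20.2). Without the position block it missed the threshold (limma adjusted p = 0.091). Of all tested, 3 components (0.0191%) were over 4-fold higher in forelimb at all 3 positions. The third, named after its values were seen, was comp20785_c0, which scored 29, 57 and 69 in anterior, middle and posterior forelimb and 3, 6 and 10 in hindlimb.

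**Figure D1:**
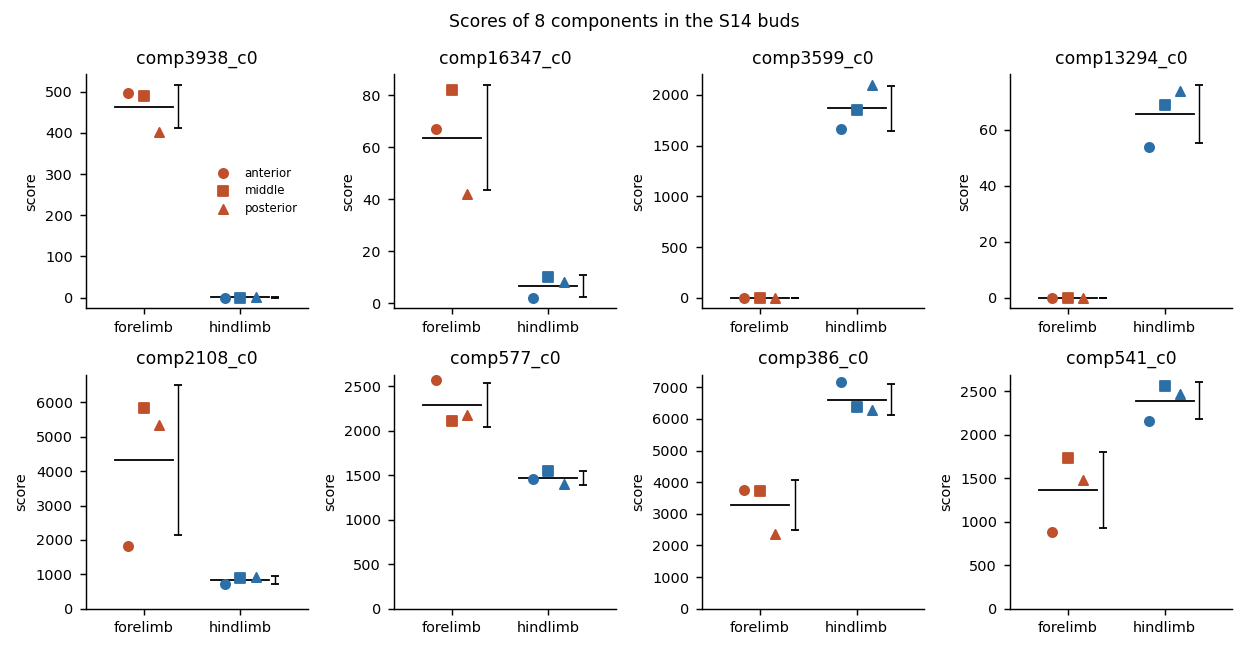
Scores (linear axis) of 8 components in the 3 forelimb and 3 hindlimb libraries of S14 buds; symbols mark the position, lines the mean and bars 1 SD over the 3 parts. In each panel the limbs do not overlap, which the choice of these components required, and in comp2108_c0 the anterior forelimb part lies at 1817 while the other forelimb parts lie at 5828 and 5340.

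Over all tested components, 170 (1.08%) were called at a limma adjusted p under 0.05 with position as a block. Of these, 66 (0.421%) were higher and 104 (0.663%) lower in forelimb. Before adjustment, 698 components higher and 1612 lower in forelimb had a p under 0.05. The surplus of lower components depended on the scaling of the libraries. With each library centred on its median, 67 were called higher and 73 lower, and 1175 higher and 1014 lower had an unadjusted p under 0.05. That centring moved the median log2 difference of all components to 0.05. Scaling each library by its upper quartile moved that median to -0.01 and kept a surplus, with 30 called higher and 43 lower. Before adjustment, 840 higher and 1367 lower then had a p under 0.05. The median log2 difference of the called components was 1.33 for those higher in forelimb, -1.63 for those lower, and -0.03 over all components tested. The called differences were smaller than 2-fold for 19 of the 66 and 26 of the 104, and larger than 4-fold for 14 and 40. Of the 170, 137 had forelimb and hindlimb scores that did not overlap. Among all components tested, groups did not overlap in 7.53% with forelimb higher and 11.8% with forelimb lower, and in 11.1% and 8.92% with median-centred libraries. With upper-quartile scaling these shares were 9.65% and 10.8%.

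The count of calls depended on the fit. It was 11 without the position block, 59 in that fit without the anterior forelimb library, 73 with upper-quartile scaling and 37 with a spread shared with later pairs. It was 417 without the anterior pair, 1377 without the middle pair, and 0 in limma with no filter or with a minimum mean score of 10 over all 14 libraries, where 3924 and 2187 components had an unadjusted p under 0.05. A count that needs no variance model asks for a fixed fold in place of a p-value, so its size is not comparable with the calls. By that count, 32 (0.204%) had forelimb ahead by over 2-fold at all 3 positions and 58 (0.37%) had hindlimb ahead by as much. With upper-quartile scaling these counts were 31 and 57, and with median-centred libraries 41 and 51. At over 4-fold, 3 (0.0191%) were higher and 14 (0.0892%) lower, and 4 and 13 with that centring.

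Calls were spread over the range of abundance. With the components ranked by mean score and divided into 3 classes of 5231, they made up 1.05% of the lowest class, up to a score of 93.8, 1.28% of the middle class and 0.918% of the highest, above 436.8. The classes held 16 components called higher and 39 called lower in forelimb in the lowest, 30 and 37 in the middle, and 20 and 28 in the highest. With median-centred libraries, 15 were higher and 29 lower in the lowest class, 31 and 27 in the middle, and 21 and 17 in the highest, so only the surplus in the lowest class was kept. Upper-quartile scaling gave 5 and 21, 15 and 12, and 10 and 10.

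**Figure D2:**
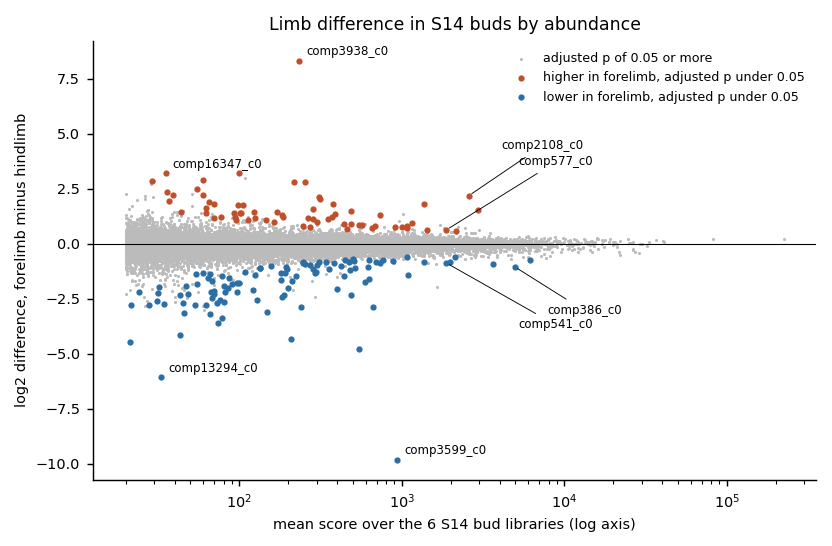
Log2 difference (forelimb minus hindlimb, log2(score + 1) scale) against the mean score over the 6 bud libraries (log axis) for 15693 components; orange and blue points were called higher and lower in forelimb, grey ones were not called. The 66 orange and 104 blue points run from low to high scores, and comp3938_c0 and comp3599_c0 lie farthest from 0.

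Among the most abundant 10%, 1571 components with mean scores from 1440 up, 4 were called higher and 6 lower in forelimb. These counts were 5 and 3 with median-centred libraries and 3 and 1 with upper-quartile scaling. Component comp2108_c0 scored 1817, 5828 and 5340 in anterior, middle and posterior forelimb and 707, 902 and 927 in hindlimb. All forelimb parts were above the hindlimb parts, but the anterior forelimb library was well below the other forelimb libraries. The mean was 4328 ± 2189 in forelimb and 845 ± 120.5 in hindlimb (SD, n = 3 each), with a log2 difference of 2.19 (SE 0.20, limma adjusted p = 0.00011). It lost its call without the block (limma adjusted p = 0.10) and with robust shrinkage (0.081).

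Component comp577_c0 scored 2573, 2114 and 2176 in anterior, middle and posterior forelimb and 1456, 1554 and 1398 in hindlimb, a narrow but complete separation. Its log2 difference was 0.63 (SE 0.12, limma adjusted p = 0.027), which missed the threshold without the posterior pair (limma adjusted p = 0.25). Of those lower in forelimb, comp386_c0 scored 3747, 3727 and 2377 in anterior, middle and posterior forelimb and 7162, 6385 and 6295 in hindlimb. That is a 2.06-fold lower read level in forelimb (exact 95% interval 2 to 2.13), and a log2 difference of -1.04 (SE 0.14, limma adjusted p = 0.0022).

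Component comp541_c0 scored 882, 1726 and 1477 in anterior, middle and posterior forelimb and 2154, 2558 and 2462 in hindlimb. Every forelimb part was below every hindlimb part, and the anterior forelimb library was again the lowest. Its log2 difference was -0.86 (SE 0.15, limma adjusted p = 0.010), and the call was lost with upper-quartile scaling (limma adjusted p = 0.067). Without the block, comp577_c0, comp386_c0 and comp541_c0 all missed the threshold, at limma adjusted p of 0.091, 0.087 and 0.20, as they did with a spread shared with later pairs, at 0.30, 0.53 and 0.47.

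The limb difference was not alike along the bud. In the anterior pair 2.42% of components exceeded a 2-fold difference with forelimb higher and 5.35% with forelimb lower. In the middle pair these shares were 2.29% and 2.27%, and in the posterior pair 2.28% and 3.91%. The surplus of components low in forelimb was thus found in the outer parts on the deposited scale. Upper-quartile scaling kept it in both, at 2.20% higher and 6.04% lower in the anterior pair and 2.72% and 3.55% in the posterior pair. With median-centred libraries the posterior pair had 3.49% with forelimb higher and 3.01% lower. The anterior pair alone kept a surplus with that centring, at 3.02% and 4.79%. These are differences of 1 library from 1 library and have no test. Among the 10262 components whose mean score reached 100, the SD of the log2 difference was 0.50 in the anterior, 0.35 in the middle and 0.44 in the posterior pair, while counting error alone would give 0.16, 0.16 and 0.14.

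Anterior and posterior pairs, which share no library, resembled each other more than either resembled the middle pair. Across components the Pearson r of their limb differences was 0.49, against 0.10 for anterior with middle and 0.26 for middle with posterior. Both outer pairs were over 2-fold lower in forelimb for 238 components and over 2-fold higher for 80, or for 196 and 127 with median-centred libraries. With upper-quartile scaling these counts were 238 and 86. The components over 2-fold lower in forelimb in both outer pairs, yet within 0.5 log2 units in the middle pair, numbered 95. Their median scores were 25, 53 and 27 in anterior, middle and posterior forelimb and 75, 56 and 83 in hindlimb. The middle parts of the 2 limbs were therefore close, and the outer parts lay on either side of them. The opposite pattern, over 2-fold higher in both outer pairs, was found for 25 components. With median-centred libraries the 2 sets held 76 and 45 components, and with upper-quartile scaling 95 and 27. Both sets were chosen on these values, which are given as a description.

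**Figure D3:**
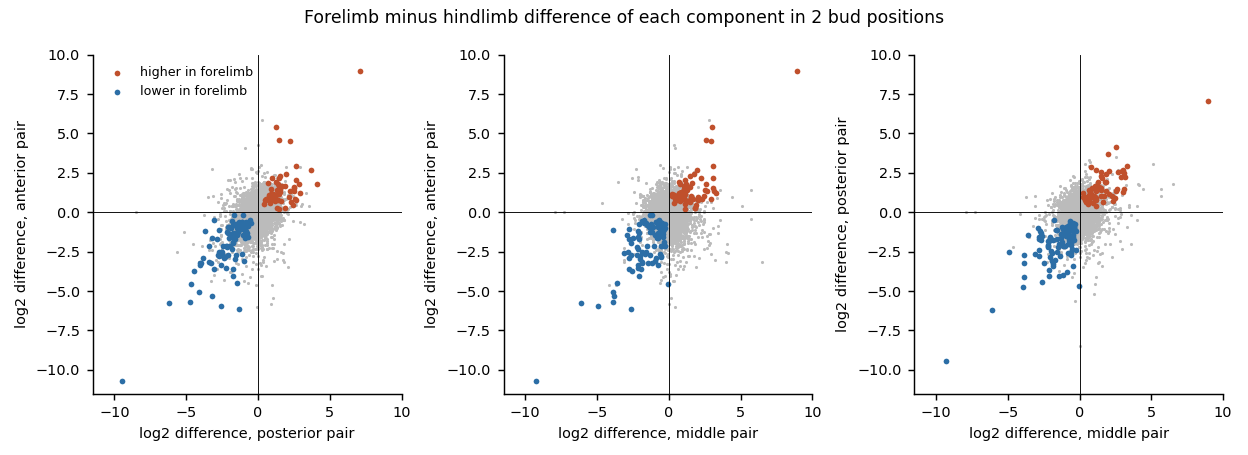
Log2 differences (forelimb minus hindlimb) of each component at 1 bud position against another, for 3 combinations of positions; colours mark the components called over all 3 pairs and grey the rest. The cloud of anterior against posterior differences is elongated (r = 0.49), and that of anterior against middle is close to round (r = 0.10).

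Of the 104 components called lower in forelimb, the middle pair gave the narrowest difference for 58 (55.8%) and the posterior pair the widest for 51 (49%). Over all components tested, the middle pair was narrowest in 46.5% and the posterior pair widest in 33.1%. Of the 66 called higher in forelimb, the anterior library had the lowest forelimb score for 35 (53%), against 33.3% of all components. The middle library had the highest hindlimb score for 39 of them (59.1%), against 41.2% of all components. For 50 of the 104 called lower (48.1%) the middle library had the lowest hindlimb score, against 31% of all components. Of the 66 called higher, the middle library had the highest forelimb score for 33 (50%), against 37%. The anterior library had the lowest hindlimb score for 33 of them (50%), against 37.9%. Some other shares were close to those of all components or below them. The posterior pair was widest for 34.8% of those called higher, against 33.1%, and the anterior pair for 35.6% of those called lower, against 43.7%. All these shares come from the values that gave the calls, were picked from a longer list, and are given as a description.

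Within a limb, anterior and posterior parts differed by more than 2-fold in 975 components (6.21%) in forelimb and 363 (2.31%) in hindlimb. For middle and posterior parts, without the anterior forelimb library, the counts were 817 (5.21%) in forelimb and 618 (3.94%) in hindlimb. In some components the limb difference was wide at 1 end of the bud and narrow or opposite at the other. Among components whose mean score reached 100, the 2 with the widest such contrast in each direction are given as values without a test, as each value is 1 library. Component comp7768_c0 scored 471, 139 and 10 in anterior, middle and posterior forelimb and 7, 19 and 8 in hindlimb. It was high in the anterior forelimb, graded toward the posterior, and low across the hindlimb. Its log2 limb difference was 5.88 in the anterior pair and 0.29 in the posterior pair. On the anterior side of the S15-17 forelimb its score was 244 in digit I and 299 in the tissue between digits I and II. The forelimb digits II-V and their interdigital tissue had 78 and 28, against 111 and 128 in hindlimb digits and interdigital tissue, so the low hindlimb level of the buds was not found at S15-17.

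Component comp18734_c0 was likewise lowest in the posterior forelimb, at 272, 49 and 13 in anterior, middle and posterior parts, but the hindlimb was even, at 135, 169 and 123 in anterior, middle and posterior parts. Its limb difference was 1.01 in the anterior pair and -3.15 in the posterior pair, so its sign turned along the bud. The reverse grading was found for comp10884_c0, with 4, 234 and 702 in anterior, middle and posterior forelimb and 54, 62 and 160 in hindlimb. Both limbs were highest in the posterior part, and the forelimb gradient was the steeper. The limb difference was -3.46 in the anterior pair and 2.13 in the posterior pair.

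Component comp14355_c0 had the same form, at 7, 84 and 376 in anterior, middle and posterior forelimb and 62, 67 and 149 in hindlimb. At S15-17, comp10884_c0 and comp14355_c0 scored 4 and 6 in digit I, while forelimb digits II-V had 38 and 106 and hindlimb digits 9 and 60. In interdigital tissue comp10884_c0 scored 12 between digits I and II and 17 between II-V, against 18 in hindlimb, so it scored at most 18 in every S15-17 part but forelimb digits II-V. There comp14355_c0 scored 17 and 78, against 18 in hindlimb. The anterior minus posterior limb difference was 5.59 for comp7768_c0, 4.15 for comp18734_c0, -5.59 for comp10884_c0 and -4.31 for comp14355_c0. Its SD over the 10262 components whose mean score reached 100 was 0.40, where counting error would give 0.21.

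**Figure D4:**
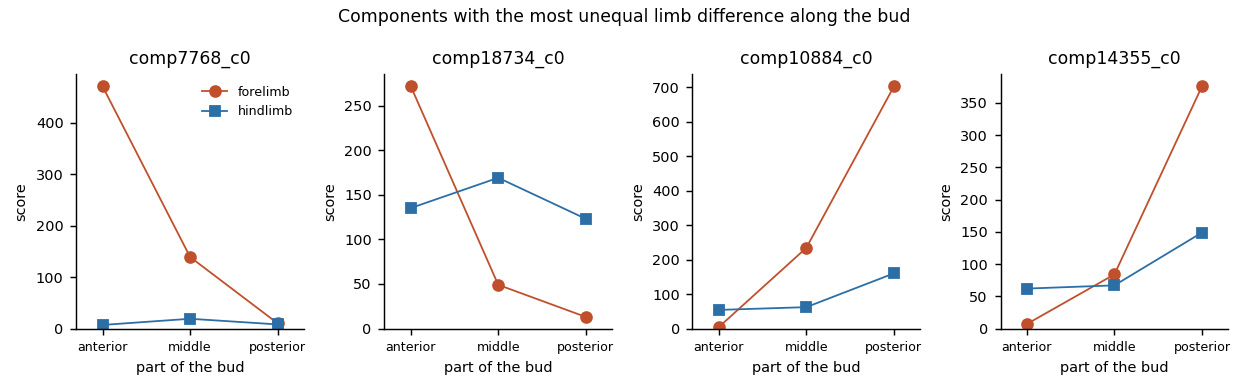
Scores (linear axis) of 4 components in the anterior, middle and posterior parts of S14 forelimb buds (orange circles) and hindlimb buds (blue squares), 1 library per point. In the posterior forelimb comp7768_c0 and comp18734_c0 lie at 10 and 13, and comp10884_c0 and comp14355_c0 at 702 and 376.

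Later parts, which the bud comparison did not use, gave a second reading of the limb difference. They form 3 matched pairs: forelimb digits II-V with hindlimb digits I-V, the interdigital tissues of the same regions, and fetal metacarpals II-V with metatarsals I-V. Of the 66 components called higher in forelimb buds, 47 (71.2%) were higher in forelimb digits, 35 (53%) in forelimb interdigital tissue and 42 (63.6%) in metacarpals. Over all components tested these shares were 42.7%, 45.6% and 49.9%. Of the 104 called lower, 76 (73.1%) were lower in forelimb digits, 60 (57.7%) in forelimb interdigital tissue and 65 (62.5%) in metacarpals, against 56%, 53.3% and 48% of all components.

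The later differences were mostly smaller. The components were chosen on their bud values and not on the later ones, so a change with stage cannot be read from this. The components called higher in buds had a median log2 difference of 0.40 in digits, 0.07 in interdigital tissue and 0.30 in metapodials, and those called lower had -0.34, -0.11 and -0.23. All 3 later pairs kept the direction for 17 of the 66 and 31 of the 104, against 9.97% and 15% of all components. A difference of over 2-fold in all 3 later pairs was kept by 5 of the 66 and 8 of the 104, against 0.14% and 0.191% of all components. Across components, the limb difference in interdigital tissue had a Pearson r of -0.20 with that in the anterior bud, 0.16 with the middle and -0.17 with the posterior. The Spearman rho was -0.37, 0.13 and -0.36, and 31.2%, 54.2% and 32.9% of all components had the same direction. Most components thus had opposite directions in interdigital tissue and in the outer bud pairs. The digits pair had a Pearson r of 0.22, 0.16 and 0.24 with the same 3 positions, with 59.2%, 51.7% and 60.2% in the same direction.

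**Figure D5:**
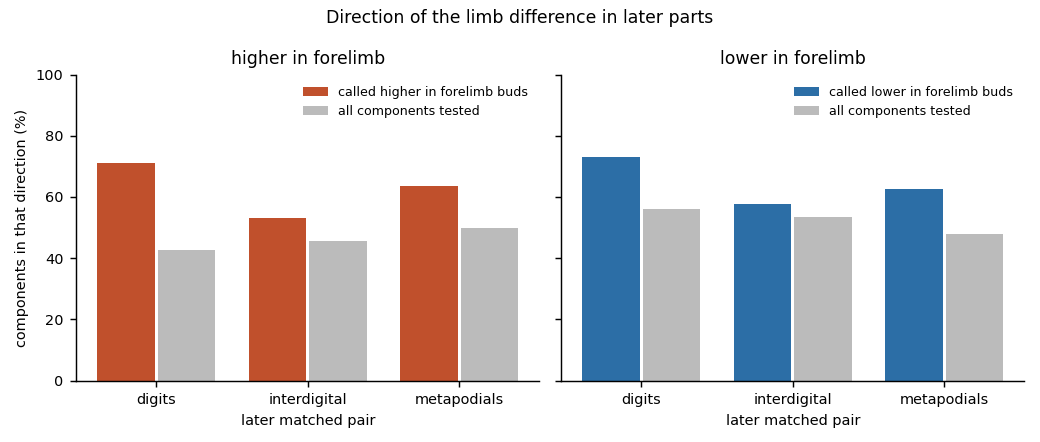
Share of components (%) higher (left) or lower (right) in forelimb in 3 later matched pairs, for the 66 and 104 components called in that direction in S14 buds (coloured) and for all 15693 tested (grey). The coloured bars stand highest in the digits pair, at 71.2% and 73.1%, and lie closest to the grey ones in interdigital tissue, at 53% and 57.7%.

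In limma on the later pairs alone, 16 of the 15693 components (0.102%) were called, and 7 of them were also called in the buds in the same direction, which is 43.8% of the later and 4.12% of the bud calls. The component comp3938_c0 was among them, with a later log2 difference of 5.75 (SE 0.47, limma adjusted p = 0.0022), as were comp3599_c0 at -7.54 (SE 0.33, limma adjusted p = 3.7e-05) and comp13294_c0 at -3.98 (SE 0.51, limma adjusted p = 0.034). The other forelimb component, comp16347_c0, was not, with 1.19 (SE 0.53, limma adjusted p = 0.84) and scores of at most 37 in every later library.

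The abundant components had other later values. In metacarpals comp386_c0 scored 699, against 3636 in metatarsals, but the tissue between forelimb digits II-V scored 3142, against 2322 in hindlimb interdigital tissue. Component comp577_c0 scored 2969 in forelimb digits, against 2231 in hindlimb digits, and 4627 in metacarpals, against 6219 in metatarsals. The 4 abundant components had later limma adjusted p of 0.38 to 0.98. None of the 8 components was called for a limb by period interaction in limma (adjusted p of 0.29 to 0.96), which does not show that they were unchanged. The 8 were chosen for wide bud differences, which can tilt a bud minus later contrast toward the buds. The bud minus later log2 difference was 2.58 (SE 0.72) for comp3938_c0 and 2.04 (SE 0.76) for comp16347_c0. It was -2.27 (SE 0.48) for comp3599_c0 and -2.07 (SE 0.68) for comp13294_c0. For the abundant ones it was 0.96 (SE 0.42) for comp2108_c0, 0.57 (SE 0.23) for comp577_c0, -0.35 (SE 0.58) for comp386_c0 and 0.07 (SE 0.43) for comp541_c0. At an unadjusted p under 0.05 that interaction was found for 1460 of all components tested, and 2 were called (0.0127%).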

How the data were processed

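The deposited table gives a score per assembled component and library. These are the authors' normalized counts rounded to whole numbers, per the file headers and the values. CASAVA 1.8, RSEM and edgeR are named in the submitters' processing notes, without a role or order. The assembler, and the reference for the scaling, are not given in the sources used here. Low scores fell on rounded multiples of 1 step per library, 1.60 to 2.23 in the buds, which was taken as the score of 1 read. After rounding to the score's unit (tolerance 0.5), 99.983% to 100% of nonzero scores matched.

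The limbs were compared on log2(score + 1) by limma 3.58.1 (R 4.3.3), position being the block and the variance trended on the mean. Fold changes on this scale come out too small for low components. Only components whose bud mean score reached 20 were tested. p-values are two-sided with Benjamini-Hochberg adjustment over them, called under 0.05. A limb by period term used all 6 matched pairs. Intervals on reads are exact 95% intervals for counting error. Reads, counts and plots used Python 3.11.15 with scipy 1.17.1, pandas 2.3.3, numpy 2.4.6 and matplotlib 3.10.9.

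Up to 2 components per direction were named: the largest log2 differences among called components without overlap, the same among the most abundant 10%, and the widest anterior minus posterior contrasts. The members, tests and lists were chosen with earlier results of these data known. Alternatives were other pseudocounts (0.25 and 5), filters, scalings, variance models, leaving out pairs and no block. The filters on a mean score of 10 or 100, the fits without the anterior forelimb library, and the splits by class, position and overlap under other scalings, were chosen after seeing the data.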

Additional observations from a re-analysis of the deposited data

Results flagged for a closer look

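In 2 components the limb difference of the buds differed from that of later parts by a test of the difference itself, and both are named because no other component passed in the fit reported. The count was between 0 and 11 when 1 pair was left out, and 0 with no block. For comp4463_c0 the bud minus later log2 limb difference was -4.97 (SE 0.44, limma adjusted p = 0.0092). Its bud scores were 150, 69 and 174 in anterior, middle and posterior forelimb and 1825, 267 and 1492 in hindlimb, so the middle hindlimb part was far below the outer ones. Later it was higher in forelimb in all 3 pairs, with 416 against 154 in digits, 1399 against 268 in interdigital tissue and 49 against 8 in metapodials (forelimb against hindlimb). For comp3957_c0 it was -2.97 (SE 0.29, limma adjusted p = 0.011), with bud scores of 210, 537 and 450 in anterior, middle and posterior forelimb and 96, 298 and 226 in hindlimb. Later it scored 456 in forelimb digits II-V, against 26 in hindlimb digits, 375 in forelimb interdigital tissue II-V, against 19 in hindlimb interdigital tissue, and 129 in metacarpals, against 10 in metatarsals. On the thumb side of the forelimb it was near the hindlimb level, at 28 in digit I and 16 in the tissue between digits I and II. Both lost the call without the anterior pair (limma adjusted p = 0.079 for comp4463_c0 and 0.12 for comp3957_c0), the posterior pair (0.091 and 0.19) or the interdigital pair (0.074 for both), and comp3957_c0 also without the digits pair (0.061).

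In forelimb libraries that entered no fit, comp3938_c0 had a score of 404 (digit I) and 493 (the tissue between digits I and II). The lower ends of their 95% counting intervals, 348 and 442, lie above the highest score in any hindlimb library, which was 10. This did not hold for comp16347_c0, which scored 21 and 17 in the same libraries. Its lower ends were 10.2 and 8.96, below its highest hindlimb score of 14.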

How the results depend on the processing

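The number of called components, 170, moved to 0 with no filter, 0 with a minimum mean score of 10 over all 14 libraries, 73 with upper-quartile scaling, 11 with no replicate block, 59 with no block and without the anterior forelimb library, 37 with a spread shared with later pairs, and between 169 and 1377 when 1 position pair was left out. Before adjustment, 3924 components with no filter and 2187 with the minimum over 14 libraries had a p under 0.05. That minimum admitted 2099 components with a mean bud score under 10, of which 100 were at 0 in every bud, and limma's prior degrees of freedom were 2.63 there, against 11 in the fit reported. A minimum mean score of 10 over the 6 buds gave 171 calls, 164 of them among the 170. Other pseudocounts, minimum mean scores of 50 and 100, median centring, robust shrinkage and voom on recovered reads gave 138 to 248 calls. Leaving out the anterior, middle or posterior pair kept 161, 169 and 104 of the 170. A fit on 2 pairs has 1 residual degree of freedom, and its adjusted p rests on the shared variance. Leaving out 1 library of a blocked fit drops its pair, so single libraries were not left out again.

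Matched parts deviated together from their limb means with r of 0.15 (anterior), 0.01 (middle) and 0.29 (posterior) across components, and the anterior forelimb went with the middle hindlimb at 0.18. The block is thus the labelled anatomy, and whether matched parts share embryos was not tested.

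The 90 components over 2-fold apart in all 3 pairs became 53 with a minimum mean score of 50, 1214 with no filter, and 138 to 318 when 1 pair was left out, which asks for 2 pairs instead of 3. The scalings moved the median log2 difference of all components to between -0.03 and 0.05. The sign of the log2 limb difference was kept under every alternative run for the 11 components it was recomputed for, which leave out the 4 named for their position dependence; for those 4 the anterior minus posterior contrast kept its sign under the other pseudocounts and scalings. With 1 pair left out, the bud minus later difference ran from -1.19 to 0.21 for comp386_c0, positive without the interdigital pair, and from -0.52 to 0.43 for comp541_c0, negative without the middle (-0.07) or metapodials pair. None of these passed the threshold, and the cause was not tested. Depth limits components near the minimum score, whose parts rest on few reads.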

Other observations

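The thumb side of the S15-17 forelimb entered no fit, and its scores were given above for single components only. Of the 66 components higher in forelimb buds, 48 (72.7%) were higher in digit I than in hindlimb digits, and 40 (60.6%) in the tissue between digits I and II than in hindlimb interdigital tissue, against 43.7% and 47.9% of all components tested. Of the 104 lower in forelimb buds, 66 (63.5%) were lower in digit I and 46 (44.2%) in that tissue, against 54.8% and 51.1%. The foot libraries are the same as in the later pairs, so these shares are no separate reading of the foot.

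In 3 tested components all bud reads came from 1 library, and they are named for that reason after their values were seen. The posterior hindlimb library alone held comp25454_c0, with 225 reads, a score of 360, and it was at 0 in the other 13 libraries of the series. The middle hindlimb library alone held comp8445_c0, at 240, and comp8689_c0, at 156, which both also appeared at up to 32 and 38 in later libraries.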
